A study of Mus musculus with 2 samples.

Results

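The cells described here are Mrc1+ Lyve1-low macrophages of the mouse lung, which carry transcripts of the mannose receptor gene Mrc1 but few or none of the genes that mark Lyve1+ Folr2+ interstitial macrophages. They were chosen on raw counts of unique molecular identifiers (UMIs, 1 per captured transcript molecule) of 12 genes in each cell: at least 4 of Mrc1, at least 3 of C1qa, C1qb and C1qc together, fewer than 8 of Cd163, Folr2, Lyve1, Cd209f and Cd209g together, fewer than 10 of Retnla and Mgl2 together and fewer than 5 of Fn1. Of 4570 cells kept, 1090 met the rule. All cells came from the lungs of irradiated CD45.1+CD45.2+ IM-DTR hosts that had received CD45.1-CD45.2+ bone marrow of either Tgfbr2 fl/fl donors (control) or LyzM-Cre Tgfbr2 fl/fl donors (Tgfbr2-KO), and all hosts were given 50 ng of diphtheria toxin 10 days before sacrifice. Donor cells that were Ly6G-, SiglecF-, CD11b+, CD64+ and low in side scatter were sorted, cells of 5 mice were pooled for each genotype, each pool was labelled with its own hashtag antibody, and both were run in 1 droplet library. The LyzM-Cre transgene sits in the lysozyme gene Lyz2 and acts across myeloid cells, so the deletion is not specific to macrophages. With 1 pool for each genotype there was no replicate and no test was possible. All intervals are exact 95% intervals that cover counting error only, and mouse-to-mouse spread is not in them.

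Interstitial macrophages live in the tissue between the airspaces and around vessels and nerves, and they are replaced in part by blood monocytes. Mrc1 (CD206) is an endocytic receptor for mannose-bearing glycoproteins and is commonly used to split these macrophages into a CD206+ branch, of which Lyve1 and Folr2 mark a perivascular kind, and a CD206- branch rich in antigen-presentation genes. TGF-beta signals through a receptor of the Tgfbr1 and Tgfbr2 chains, and Tgfbr2 binds the ligand first.

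The hashtag sequences tie each cell to its genotype and are shown because every comparison of the pools rests on them.
Control (hashtag B0301): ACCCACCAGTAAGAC
Tgfbr2-KO (hashtag B0303): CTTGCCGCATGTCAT
In control Mrc1+ Lyve1-low cells the median count was 463.5 hashtag UMIs of their own tag and 59 of the other. In Tgfbr2-KO cells the medians were 876.5 and 34.

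The Mrc1+ Lyve1-low cells made up 544 of 1896 control cells, or 28.7% (26.7 to 30.8), and 546 of 2674 Tgfbr2-KO cells, or 20.4% (18.9 to 22.0). The difference, Tgfbr2-KO minus control, was -8.27 percentage points. Because the rule uses raw UMIs, a deeper cell passes the Mrc1 limit more easily, and the Tgfbr2-KO cells were deeper, with a median of 10145 gene UMIs against 7974.5. The upper limits on program genes, Retnla with Mgl2 and Fn1 work the other way, since a deeper cell fails them more easily. The group at or over the Retnla and Mgl2 limit held 211 control cells (11.1%) and 612 Tgfbr2-KO cells (22.9%). With the limits set per 10000 UMIs the difference was -13.2 points. A median of 2264.5 genes was seen in control cells and of 2705 in Tgfbr2-KO cells, and mitochondrial UMIs took 2.76% and 2.39%. The largest other group was low in Mrc1, with 718 control and 916 Tgfbr2-KO cells. Cells at or over the program limit, called Lyve1 program cells here, numbered 115 and 134. The sort gate and the hashtag assignment set which cells could be seen, so these are shares of sorted cells and not of lung macrophages.

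**Figure D1:**
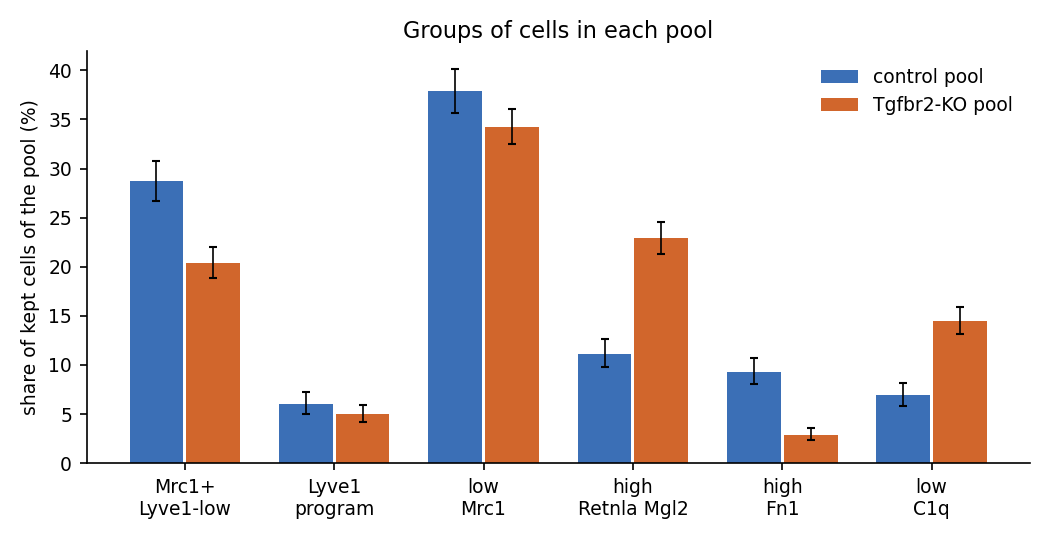
Share of kept cells (percent, vertical axis from 0) in each of 6 groups for the control and Tgfbr2-KO pools, with exact 95% intervals as bars. The Mrc1+ Lyve1-low group is 28.7% of control and 20.4% of Tgfbr2-KO cells.

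Near the limits the values were continuous. At the Mrc1 limit, 113 control and 114 Tgfbr2-KO cells stood just inside with 4 UMIs, and 150 and 115 stood just outside with 3. At the program limit, 9 and 14 cells stood just inside with 7 UMIs and 15 and 15 just outside with 8. The median Mrc1 count was 7 in both pools, with a range of 4 to 64 in control and 4 to 99 in Tgfbr2-KO cells. No UMI of the 5 program genes was found in 66.2% of control and 70.1% of Tgfbr2-KO cells. Lyve1, a hyaluronan receptor, was at 0 in 96.7% and 98.9% of them, the hemoglobin scavenger receptor Cd163 in 90.8% and 94.1%, and the folate receptor Folr2 in 72.1% and 73.6%. These values follow from the rule and support nothing further.

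The label of these cells names Mrc1, Stab1, Spic, Kazn and Abca1 as markers. Levels are given as UPM, the UMIs of a gene per 1000000 gene UMIs summed over all cells of a group. Mrc1 (chr2:14229414-14332023, GRCm38) stood at 1171 UPM in control and 972 UPM in Tgfbr2-KO Mrc1+ Lyve1-low cells, at 191 and 86.8 UPM in low Mrc1 cells, and at 2549 and 2600.2 UPM in Lyve1 program cells. Stab1, a scavenger receptor (chr14:31139017-31168651), stood at 128 and 66.8 UPM, above low Mrc1 cells (61.6 and 27.8 UPM) and below Lyve1 program cells (395 and 212 UPM). Spic, the transcription factor of heme-handling macrophages, stood at 60.2 and 38.8 UPM and was more than 2-fold higher in Lyve1 program cells at 135 and 143 UPM. Abca1, a cholesterol exporter, stood at 823 and 474 UPM against 1463 and 979 UPM in Lyve1 program cells. Mrc1, which the rule uses, and these 3 markers were thus all higher in Lyve1 program cells than in Mrc1+ Lyve1-low cells in both pools.

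Kazn, which encodes a protein of cell junctions, came nearest to marking them (chr4:142102390-142239401). Its level was 262 UPM (247 to 277) in control Mrc1+ Lyve1-low cells, 240 UPM (213 to 270.4) in Lyve1 program cells, an interval that overlaps the first, and 106 UPM in low Mrc1 cells. In the Tgfbr2-KO pool the 3 levels were 78.8, 154 and 37.9 UPM, so Lyve1 program cells held more there. Kazn was also present in droplets without a cell, at 1181 UPM over 70147 barcodes with 10 to 100 UMIs. To set cells of different depth side by side, each was thinned to 3000 UMIs. A Kazn UMI was then found in 21.6% of control and 10.6% of Tgfbr2-KO Mrc1+ Lyve1-low cells (29.0% and 21.4% before thinning). In cells with few C1q and at least 3 monocyte-gene UMIs, a reference group chosen after the data had been seen, thinning left a Kazn UMI in 2.86% of 35 cells in control and in 3.08% of 260 in the Tgfbr2-KO pool. The median depth of these reference cells before thinning was 8899 and 11053 UMIs.

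**Figure D2:**
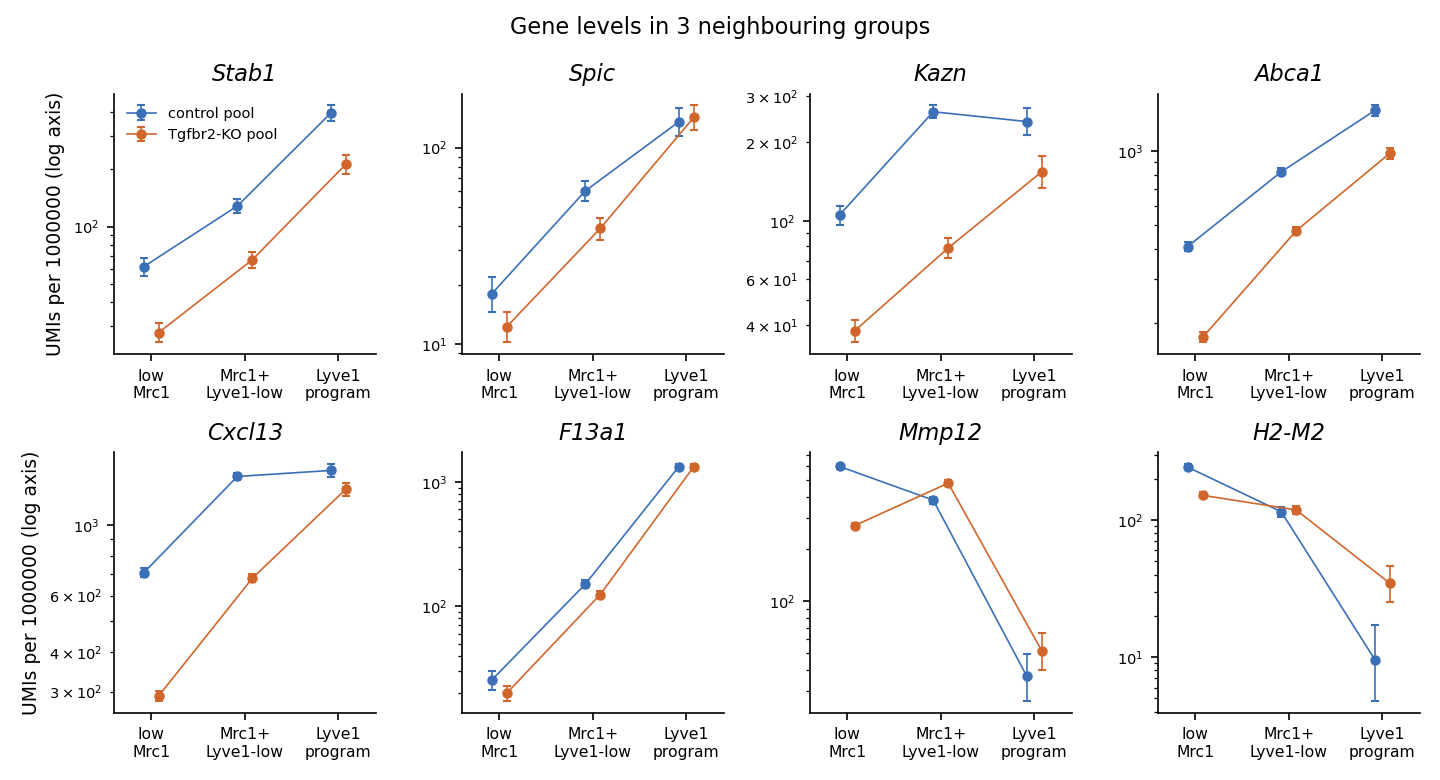
Levels of 8 genes (UMIs per 1000000, log axis) in low Mrc1, Mrc1+ Lyve1-low and Lyve1 program cells of each pool, with exact 95% Poisson intervals. Stab1, Spic, Abca1 and F13a1 climb from left to right in both pools, and Kazn in the control pool is about level between the middle and right groups, whose intervals overlap.

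Macrophage identity was seen in nearly all of these cells. The colony-stimulating factor receptor Csf1r had a UMI in 98.2% of control and 94.1% of Tgfbr2-KO cells, and the macrophage surface protein Adgre1 in 93.9% and 94.9%. Several markers of other cells were low: Ly6g was at 0 in both pools, and Siglecf stood at 1.09 and 0.957 UPM, with both proteins excluded by the sort. Of 10 alveolar macrophage markers, 0 were at 0 in control and 3 in Tgfbr2-KO cells, and they summed to 37.8 and 7.34 UPM. The 10 T and NK cell markers summed to 56.3 and 77.5 UPM, of which the cytokine receptor Il7r gave 55.6 and 75.3 UPM. B cell markers summed to 166 and 193 UPM, mostly Ighm at 147 and 173 UPM. The classical monocyte marker Ly6c2 stood at 0.869 UPM in control and 67.5 UPM in Tgfbr2-KO cells, where 6.96% had a UMI of it. Free RNA could make up at most 1.20% of control and 5.67% of Tgfbr2-KO UMIs, from the gene that was lowest in cells relative to empty droplets.

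Set against all other kept cells, the Mrc1+ Lyve1-low cells stood out little beyond the genes that chose them. Only genes with at least 100 UMIs in the comparison and at least 100 UPM on 1 side were counted. Of 1366 such genes, 4 were higher in both pools by 1.5-fold or more (0.293%) and 11 were lower by as much (0.805%). Among the 4 higher genes, ranked by the smaller ratio of the 2 pools, Cxcl13 came first, the chemokine that draws B cells (chr5:95956939-95961068). It stood at 1419 UPM against 566 UPM in other control cells, or 2.51-fold (2.42 to 2.60), and at 680 against 368 UPM in the Tgfbr2-KO pool, or 1.85-fold (1.78 to 1.92). Its UMIs came from a minority of cells: a Cxcl13 UMI was found in 33.3% of control and 21.8% of Tgfbr2-KO Mrc1+ Lyve1-low cells (29.98% and 16.8% after thinning to 3000 UMIs). Cxcl13 was not highest there: Lyve1 program cells had it at 1482 and 1294 UPM, with a UMI in 58.3% and 48.5% of cells (50.9% and 39.7% after thinning). The other 3 were the adhesion protein gene Negr1 (1.69- and 2.07-fold), the lipid phosphatase Inpp4b (1.64- and 1.68-fold) and the adhesion molecule Vcam1 (1.62- and 1.66-fold). Their levels in Lyve1 program cells are not reported here. Among Mrc1+ Lyve1-low cells, Vcam1 stood at 192 and 343 UPM in those with 0 program UMIs and at 416 and 621 UPM in those with 1 to 7. Just under the threshold in control were the lipid carrier Apoe (1.49- and 1.70-fold) and the fractalkine receptor Cx3cr1 (1.47- and 1.89-fold).

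Several monocyte genes were among those lower than in the other cells. The other cells include those low in C1q (132 control and 388 Tgfbr2-KO) and high in Fn1 (176 and 78), so this follows in part from the rule. Plac8, a monocyte marker, was 45.1-fold lower in the control pool (27.3 to 80.7) and 5.19-fold lower in the Tgfbr2-KO pool (4.87 to 5.55). It stood at 3.26 and 151 UPM here. Low Mrc1 cells had 11.4 and 323 UPM with 1 to 3 Mrc1 UMIs, and 78.8 and 805 UPM with 0. The calcium-binding proteins S100a4 (1.82- and 2.33-fold) and S100a6 (2.14- and 1.80-fold) were lower, as were the coagulation factor gene F13a1 (1.85- and 2.22-fold), the transcription factor gene Bhlhe40 (2.49- and 1.83-fold) and the interferon-induced Ifitm3 (1.94- and 1.80-fold).

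The nearest groups showed larger differences. Against Lyve1 program cells, 78 of 1524 counted genes were higher in Mrc1+ Lyve1-low cells in both pools (5.12%) and 176 were lower (11.5%). Mmp12, the macrophage elastase (chr9:7344397-7360461), stood at 382 UPM against 36.7 UPM in control Lyve1 program cells, or 10.4-fold higher (7.67 to 14.5). In the Tgfbr2-KO pool it stood at 479 against 51.5 UPM, or 9.30-fold higher (7.34 to 11.96). The adhesion molecule Cadm1 was 5.36- and 7.66-fold higher, the non-classical MHC gene H2-M2 11.96- and 3.43-fold, the crosslinking enzyme Tgm2 3.54- and 4.14-fold and the tetraspanin Cd9 3.41- and 4.01-fold. The monocyte chemokine receptor Ccr2 was 7.24- and 2.83-fold higher. Of 11 genes of a list for interstitial macrophages with little Mrc1, 6 were counted. Of these, 4 were higher (H2-M2, Ccr2, Cd72 and Mmp12) and 0 were lower. Genes that reached 100 UPM only in Mrc1+ Lyve1-low cells, such as Mmp12, could only be higher here.

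Secreted factors were among the genes lower than in Lyve1 program cells. The eosinophil chemokine Ccl24 (chr5:135569935-135573123) stood at 17.4 UPM against 211 UPM in control, or 12.2-fold lower (9.41 to 15.9), and at 9.73 against 143 UPM in the Tgfbr2-KO pool, or 14.7-fold lower. F13a1 (chr13:36867178-37050244) stood at 150.1 against 1328 UPM and at 124 against 1327 UPM, so it was 8.85-fold (8.08 to 9.69) and 10.7-fold (9.84 to 11.7) lower. Of 9 counted growth factor genes and receptors, 7 were lower and 0 higher. They included Bmp2 (6.10- and 5.62-fold), a bone morphogenetic protein, Gas6 (4.87- and 7.78-fold), the ligand of the Axl and Mertk receptors for dying cells, the EGF family ligand Hbegf (3.38- and 3.39-fold) and Igf1 (1.61- and 3.16-fold), a growth hormone mediator. Heme and iron genes were lower in 6 of 11, among them the heme-degrading enzyme Hmox1 with log2 differences of -1.85 and -2.51. Of 19 genes of the Lyve1 program that the rule did not use, 11 were counted. Of these, 9 were lower, including Cbr2 (7.47- and 9.97-fold), a carbonyl reductase. The 2 groups were split on program genes, so lower levels of genes expressed with them are in part what the rule selects.

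Against low Mrc1 cells, 69 of 1346 counted genes were higher in both pools (5.13%) and 6 were lower (0.446%). Among the higher genes, ranked by the smaller ratio of the 2 pools, F13a1 came first. It was 5.92-fold higher (4.91 to 7.17) in control and 6.23-fold (5.34 to 7.31) in the Tgfbr2-KO pool. Here, unlike against Lyve1 program cells, Mrc1+ Lyve1-low cells were the higher side for F13a1. Chemokines that draw monocytes were higher: Ccl8 by 5.41- and 2.70-fold, Ccl7 by 2.35- and 3.88-fold and Ccl2 by 1.56- and 2.68-fold. In all, 6 of 15 counted chemokine genes were higher. The platelet factor Pf4 was 2.30- and 4.33-fold higher, the transcription factor Maf 2.35- and 2.93-fold, and the metal-binding Mt1 1.64- and 2.15-fold. The 6 lower genes were the interferon-induced chemokine Cxcl9 (6.38- and 3.91-fold), AA467197 (2.37- and 3.65-fold), S100a4 (1.67- and 1.86-fold), the integrin chain Itgax (1.56- and 1.66-fold), Zmynd15 (1.73- and 1.55-fold) and S100a11 (1.53- and 1.87-fold).

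Most genes that separated these neighbours took a middle value in the Mrc1+ Lyve1-low cells. This comparison was chosen after the data had been seen. Of 1553 counted genes, 382 were higher by 1.5-fold or more in Lyve1 program than in low Mrc1 cells in both pools. For 372 of the 382 (97.4%) the Mrc1+ Lyve1-low level lay between the other 2 levels in both pools. The median position was 44.9% of the way up in control and 47.8% in the Tgfbr2-KO pool. Of 146 genes lower in Lyve1 program cells, 113 (77.4%) lay between, with median positions of 32.1% and 27.9% from the low Mrc1 level. The same count for cells high in Retnla and Mgl2 gave 87.4% and 67.1%. The groups were cut on Mrc1 and program genes, so a middle place is in part what the rule selects.

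Within the Mrc1+ Lyve1-low cells, the level of Mrc1 ordered other genes too. The cells were split, after the data had been seen, into 4 bins of under 5, 5 to 10, 10 to 20 and at least 20 Mrc1 UMIs per 10000, which held 80, 220, 149 and 95 control and 152, 190, 129 and 75 Tgfbr2-KO cells. Of 1622 counted genes, 103 were higher in each next bin and at least 2-fold over the bins in both pools (6.35%), and 28 were lower in each next bin (1.73%). F13a1 went from 53.8 through 86.0 and 174 to 430 UPM in control and from 15.1 through 95.2 and 126 to 676 UPM in Tgfbr2-KO cells. Spic went from 12.4 to 164 UPM and from 17.7 to 131 UPM between the end bins. Maf, which drives macrophage genes, went from 93.1 to 424 UPM and from 124 to 440.1 UPM. Bank1, a B cell scaffold gene, went from 9.31 to 182 UPM and from 13.4 to 217 UPM. The growth factor genes Bmp2, Gas6 and Pdgfc were also among the 103, as was Pf4.

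The 28 genes that fell with Mrc1 included some that mark macrophages with little Mrc1. Itgax went from 131 through 80.6 and 67.5 to 13.7 UPM in control and from 139 through 95.6 and 84.6 to 17.7 UPM in Tgfbr2-KO cells. H2-M2 went from 198 to 6.08 UPM and from 169 to 30.2 UPM, and S100a4 from 766 to 146 UPM and from 449 to 146 UPM between the end bins. Depth moved with the bins: the median cell had 10851 UMIs in the first control bin and 6660 in the last, and 14129.5 and 6745 in the Tgfbr2-KO bins. Its part in these orders was not tested. The MHC class II gene H2-Aa was neither among the rising nor among the falling genes.

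**Figure D3:**
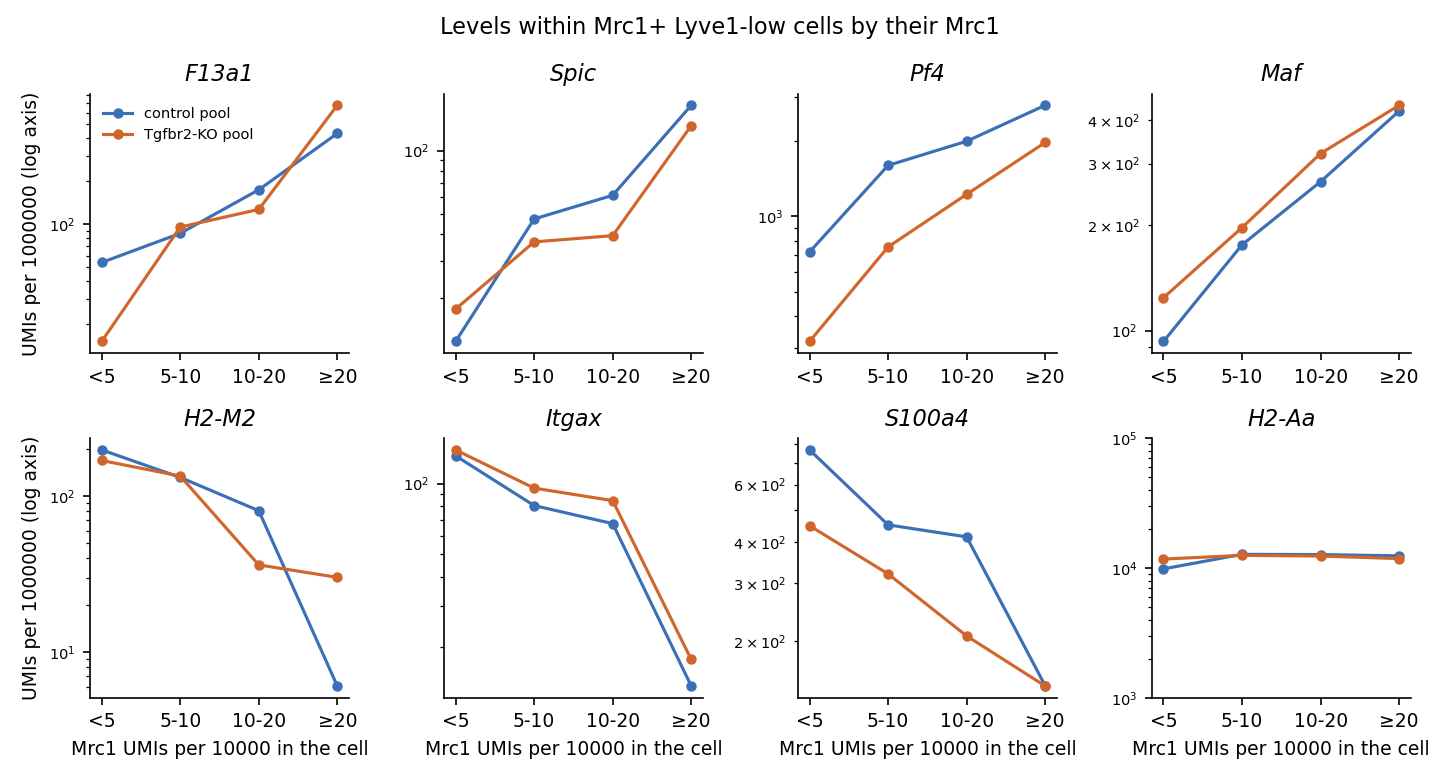
Levels of 8 genes (UMIs per 1000000, log axis) in Mrc1+ Lyve1-low cells split into 4 bins by Mrc1 UMIs per 10000, for each pool; the points are sums over cells and have no replicate. F13a1, Spic, Pf4 and Maf are higher in each next bin, H2-M2, Itgax and S100a4 are lower in each next bin, and H2-Aa is in neither set.

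The comparison of the pools asks what the loss of Tgfbr2 from LyzM-Cre-marked donor cells changes in these macrophages. The targeted gene itself could not be used as a check. Tgfbr2 stood at 244 UPM in control and 227 UPM in Tgfbr2-KO Mrc1+ Lyve1-low cells, a fold of 1.08 (0.993 to 1.16). The library reads the 3′ ends of transcripts, and the floxed exon is not named in the labels, so a transcript with the deletion may still be counted. Lyz2, the gene that carries the Cre (chr10:117277541-117282272), stood at 13718 UPM in control and 5750 UPM in Tgfbr2-KO cells and was 2.39-fold lower (2.36 to 2.42). Lyz1, its neighbouring lysozyme gene (chr10:117287795-117292868), was 7.39-fold higher (6.83 to 8.00), at 152 against 1122 UPM. The 2 genes are similar in sequence, so reads could be shared between them and each value is uncertain.

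Of 1581 genes counted in Mrc1+ Lyve1-low cells, 164 were at least 1.5-fold higher in the Tgfbr2-KO pool (10.4%) and 103 were at least 1.5-fold lower (6.51%). The median log2 ratio over all counted genes was 0.07. Scaling by trimmed means in place of total UMIs gave 128 higher and 136 lower, and the balance of the 2 directions thus turned with the scaling. In Lyve1 program cells 6.68% were higher and 8.08% lower, and in low Mrc1 cells 18.7% and 12.1%, with the same rule but other cell numbers and depths.

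Interferon-induced genes led the higher side. Of 29 genes in that list, 11 were counted, and all 11 were higher, with a median log2 ratio of 3.16. Genes that reached the minimum level only in the Tgfbr2-KO pool, such as Ly6a and Cxcl9, could only be higher here. The count and the median thus follow in part from the filter. Summed over all 29 genes, counted or not, the level was 1056 UPM in control and 4705 UPM in Tgfbr2-KO cells. Ly6a, an induced surface antigen (chr15:74994877-74998031), stood at 4.35 UPM in control and 295 UPM in Tgfbr2-KO cells, or 67.8-fold higher (43.8 to 111). Iigp1, an induced GTPase, went from 2.82 to 138 UPM (48.9-fold, 28.4 to 92.1). Cxcl9 (chr5:92321331-92328079), the chemokine for activated T cells, went from 16.5 to 732 UPM (44.4-fold, 35.4 to 56.4). The guanylate-binding protein Gbp2 (10.3-fold) and the ion channel subunit Calhm6 (8.94-fold) were among the 12 with the largest ratios. Low Mrc1 cells showed log2 ratios of 6.24 for Ly6a and 4.76 for Cxcl9 and Lyve1 program cells of 7.28 and 4.21, beside 6.08 and 5.47 in Mrc1+ Lyve1-low cells. Whether these ratios differ between groups was not tested. Ly6a had a UMI in 2 of 115 control Lyve1 program cells, so its ratio there rests on a control level near 0. In the Tgfbr2-KO pool, a Ly6a UMI was found in 24.6% of Lyve1 program, 31.1% of Mrc1+ Lyve1-low and 46.6% of low Mrc1 cells.

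Promoters of this list were searched for the letters of an interferon-stimulated response element (GAAA, then any 2 bases, then GAAA) and of a gamma-activated site, TTCNNNGAA, on both strands. Sequences were taken from RefSeq (GRCm38.p6) as 300 bases, 250 before and 50 after the start. Of the 11 counted genes, 8 had a promoter there. The first motif was in 6 of the 8 (Cxcl10, Gbp2, Rsad2, Calhm6, Ifitm3 and Bst2) and in 3.99% of 27025 genes with a promoter. The second was in 3 of the 8 (Irf1, Ifitm3 and Bst2) and in 9.55% of genes. A match describes letters and not binding. The promoters of Gbp2 (chr3:142620413-142620712, plus strand) and Calhm6 (chr10:34127923-34128222, minus strand) are shown as examples of members that moved together, 5′ to 3′, with capitals marking the match to the first motif or its reverse complement.
Gbp2: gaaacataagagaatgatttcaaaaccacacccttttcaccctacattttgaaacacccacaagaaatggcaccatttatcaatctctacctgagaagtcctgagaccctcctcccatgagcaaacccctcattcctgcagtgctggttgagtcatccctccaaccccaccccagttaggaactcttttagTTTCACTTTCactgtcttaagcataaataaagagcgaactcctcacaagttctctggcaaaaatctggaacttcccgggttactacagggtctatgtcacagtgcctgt
Calhm6: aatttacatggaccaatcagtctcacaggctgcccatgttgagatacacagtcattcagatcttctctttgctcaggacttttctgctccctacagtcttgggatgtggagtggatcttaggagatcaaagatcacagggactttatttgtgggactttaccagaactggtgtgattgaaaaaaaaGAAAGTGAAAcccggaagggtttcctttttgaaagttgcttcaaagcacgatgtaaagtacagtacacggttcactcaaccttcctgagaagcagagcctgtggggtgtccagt
In Gbp2 the match lies on the reverse strand and in Calhm6 on the forward strand. The levels were 16.5 and 170 UPM for Gbp2 and 12.4 and 111 UPM for Calhm6 in control and Tgfbr2-KO cells.

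Other genes were higher in the same direction. Plac8 went from 3.26 to 151 UPM (46.4-fold, 28.0 to 83.3), beside the monocyte marker Ly6c2 named above. Gpnmb, a glycoprotein of lipid-laden macrophages, went from 6.52 to 124 UPM (19.0-fold, 13.2 to 28.4). Its UMIs came from few cells, with a Gpnmb UMI in 2.02% of control and 7.14% of Tgfbr2-KO cells (1.12% and 4.10% after thinning to 3000 UMIs). Acod1, the enzyme that makes itaconate, was 16.2-fold higher and the T cell chemokine Ccl5 9.79-fold. Ccl8 went from 333 to 2594 UPM (7.79-fold, 7.40 to 8.22), the fatty acid binding protein Fabp5 from 121 to 873 UPM (7.23-fold, 6.62 to 7.90) and the IgG receptor Fcgr4 from 38.9 to 270 UPM (6.93-fold, 5.94 to 8.13). Of 10 counted glycolysis genes 5 were higher, against 10.4% of all counted genes, among them Pgam1 with a log2 ratio of 1.06, and 0 were lower. In Tgfbr2-KO cells with under 3 UMIs of 5 interferon-induced genes, levels of several were nearer control. Gapdh stood at 542 UPM there, 914 UPM in the remaining Tgfbr2-KO cells and 477 UPM in control. Pkm stood at 176, 316 and 144 UPM, and Pgam1 at 91.7, 156 and 61.5 UPM. Among cells under that limit Pfkp, a glycolysis gene, was still 1.59-fold higher in the Tgfbr2-KO pool.

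Among genes lower in Tgfbr2-KO cells, Kazn had the largest ratio, at 262 against 78.8 UPM (3.32-fold, 2.99 to 3.70). Subtracting the most free RNA the empty droplets allow moved its log2 ratio from -1.73 to -4.32. The amounts subtracted were unequal upper bounds, 1.20% of control and 5.67% of Tgfbr2-KO UMIs, although both pools were in 1 droplet library. The size of this move depends on them and does not measure a larger difference in Kazn. Next came Abcc1, a glutathione conjugate exporter, at 111 against 42.9 UPM (2.60-fold, 2.24 to 3.02), Gadd45g, a stress sensor, at 148 against 59.5 UPM, and Srxn1, a sulfiredoxin, at 156 against 63.2 UPM. Oxidative stress genes of the Nrf2 and metallothionein list were lower in 7 of 10, against 6.51% of all counted genes, and higher in 0, with a median log2 ratio of -0.84. They included Mt1, at 3937 against 2146 UPM, and Hmox1, at 330.0 against 189 UPM. Without interferon-positive cells (those with at least 3 UMIs of 5 such genes), the ratios of Mt1 and Hmox1 were 1.32 and 1.44, under the threshold. Of 8 counted genes known from resting microglia, 4 were lower (Trem2, Cd33, Tgfbr1 and Fcrls) and 0 higher. The lipid sensor Trem2 went from 414 to 214 UPM and the sialic acid receptor Cd33 from 165 to 71.6 UPM. Without interferon-positive cells, the 4 ratios were 1.38 for Trem2, 1.42 for Cd33, 1.24 for Tgfbr1 and 1.22 for Fcrls, all under the threshold.

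Lipid and chemokine genes split. Apoe stood at 15174 UPM in control and 7728 UPM in Tgfbr2-KO cells (1.96-fold lower), and Abca1 was lower with a log2 ratio of -0.80, while Fabp5, Lpl and Soat1 were higher, with log2 ratios of 2.85, 0.64 and 0.62. Of 16 counted chemokines 5 were higher and 4 lower, against 10.4% and 6.51% of all counted genes. The lower ones were Cxcl13, at 1419 against 680 UPM (2.09-fold, 2.01 to 2.17), Pf4, at 1679 against 795 UPM, and the neutrophil chemokines Cxcl1 and Cxcl2, each with a log2 ratio of -0.79. Without interferon-positive cells the ratios of Pf4, Cxcl2 and Abca1 were 1.38, 1.32 and 1.42. The complement component C3 was 2.53-fold higher (2.30 to 2.79), but without interferon-positive cells its log2 ratio was -0.15, in the other direction.

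Most TGF-beta genes did not pass 1.5-fold, and more of those that did were lower than higher. Among 11 counted targets, 3 were lower, against 6.51% of all counted genes, and 1 was higher, a share near the 10.4% of all counted genes. The median log2 ratio was -0.06. The feedback inhibitor Pmepa1 went from 245 to 126 UPM (1.95-fold lower, 1.78 to 2.14) and the corepressor Skil from 636 to 361 UPM (1.76-fold lower, 1.67 to 1.86). Thbs1, thrombospondin, which can activate latent TGF-beta, was 4.24-fold higher (3.603 to 5.01). It stood at 37.4 UPM in control cells, 62.7 UPM in Tgfbr2-KO cells that were not interferon-positive and 232 UPM in those that were. Without interferon-positive cells it was not among the called genes. Of 6 counted pathway components, 2 were lower, against the same 6.51%, and 0 were higher. The lower ones were Tgfbr1, from 329 to 196 UPM, and the integrin chain Itgav, whose dimers release active TGF-beta, from 469 to 223 UPM. Without interferon-positive cells the calls of Pmepa1, Skil and Tgfbr1 were lost, with ratios of 1.28, 1.34 and 1.24, and that of Itgav was 1.64. Of 10 counted antigen presentation genes none passed 1.5-fold, with log2 ratios of 0.00 for Cd74 and 0.01 for H2-Aa. Maf stood at 216 UPM in both pools.

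**Figure D4:**
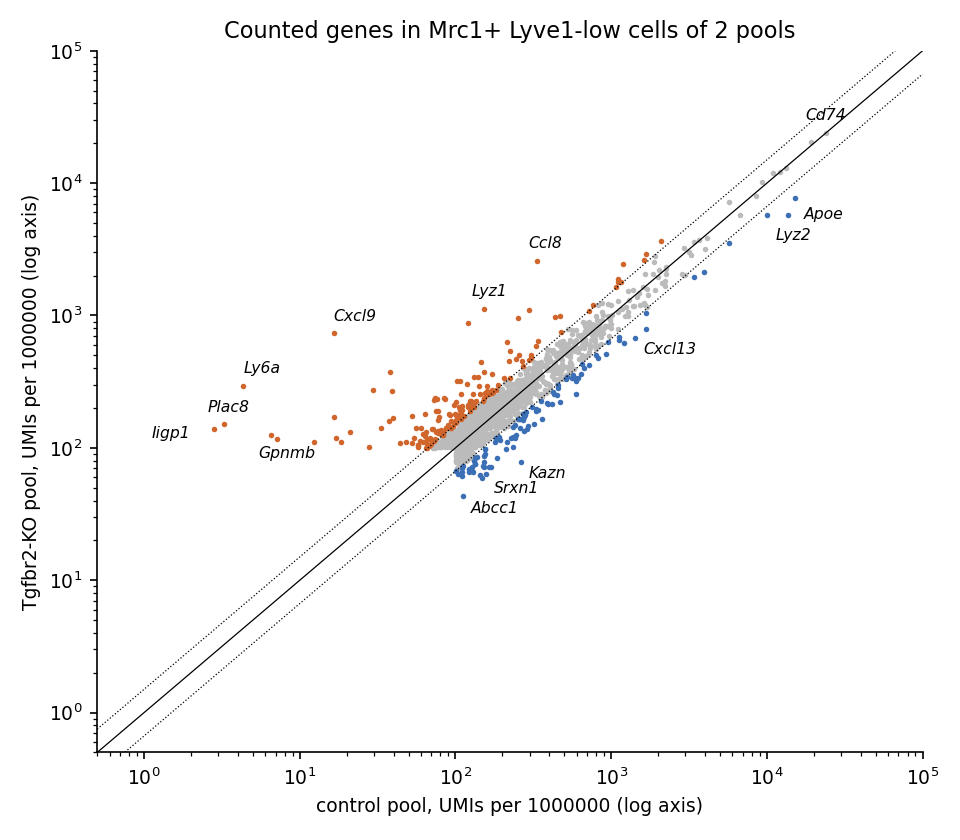
Level of each of 1581 counted genes in Mrc1+ Lyve1-low cells of the control pool (horizontal) and of the Tgfbr2-KO pool (vertical), in UMIs per 1000000 on log axes, 1 point for each gene and no replicate. The solid line is equality and the dotted lines 1.5-fold; 164 genes lie above and 103 below, and Ly6a and Cxcl9 are far above.

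The interferon-induced transcripts were uneven between cells. Cells with at least 3 UMIs of Cxcl9, Ly6i, Ly6a, Gbp2 and Iigp1 together are called interferon-positive. Such cells, a split chosen after the data had been seen, were 13 of 544 in control (2.39%, 1.28 to 4.05) and 235 of 546 in Tgfbr2-KO (43.0%, 38.8 to 47.3). These cells were deeper, with a median of 14339 UMIs against 7857 in the other Tgfbr2-KO cells and 7883 in the other control cells. After thinning to 3000 UMIs, a Cxcl9 UMI was found in 2.79% of control and 29.98% of Tgfbr2-KO Mrc1+ Lyve1-low cells (6.07% and 37.5% before). The part of free RNA in these shares was not tested.

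Within the Tgfbr2-KO pool, 1649 genes were counted, of which 202 were higher in the interferon-positive cells than in the rest by 1.5-fold or more (12.2%) and 156 were lower (9.46%). Ly6c2 had 1.10 UPM in the rest and 119 UPM in the positive cells, and Plac8 13.9 and 257 UPM. Ccl8 stood at 657 and 4086 UPM and the chemokine Cxcl10 at 252 and 936 UPM. Lower in the positive cells were the collagenase Mmp13 (107 and 14.4 UPM), the heat shock gene Hspa1a (488 and 94.0 UPM), Fcrls (248 and 67.2 UPM), Pf4 (1220 and 469 UPM) and Cd33 (117 and 36.7 UPM). Mrc1 itself was at 1199.5 UPM in the rest and 796 UPM in the positive cells.

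When only cells under 3 interferon-induced UMIs were compared, 46 of 1511 counted genes were higher in the Tgfbr2-KO pool (3.04%) and 31 were lower (2.05%). Of these, 34 and 27 were also called over all Mrc1+ Lyve1-low cells. Lyz1 kept a 6.95-fold higher level (156 against 1086 UPM), Fabp5 3.72-fold (117 against 435 UPM), Fcgr4 3.48-fold and Ccl8 2.71-fold (243 against 657 UPM). Mmp12, at 387 against 620 UPM, was 1.60-fold higher in these cells. On the lower side stood Cxcl13 (1393 against 550 UPM, 2.53-fold), Kazn (266 against 109 UPM, 2.45-fold), Lyz2 (13847 against 5690 UPM, 2.43-fold), the cystine transporter Slc7a11 (2.32-fold), Srxn1 (1.93-fold) and Apoe (15363 against 9380 UPM, 1.64-fold). Most of the 164 higher and 103 lower calls over all Mrc1+ Lyve1-low cells were thus not made here. Besides genes named above, Soat1, Cxcl1 and Pgam1 were among those no longer called. So was the membrane protein gene Emp1, with a log2 ratio of -0.32. The cells left out were chosen on genes that differ between the pools, so the low ratios of Cxcl9 and Gbp2 here follow from the split.

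**Figure D5:**
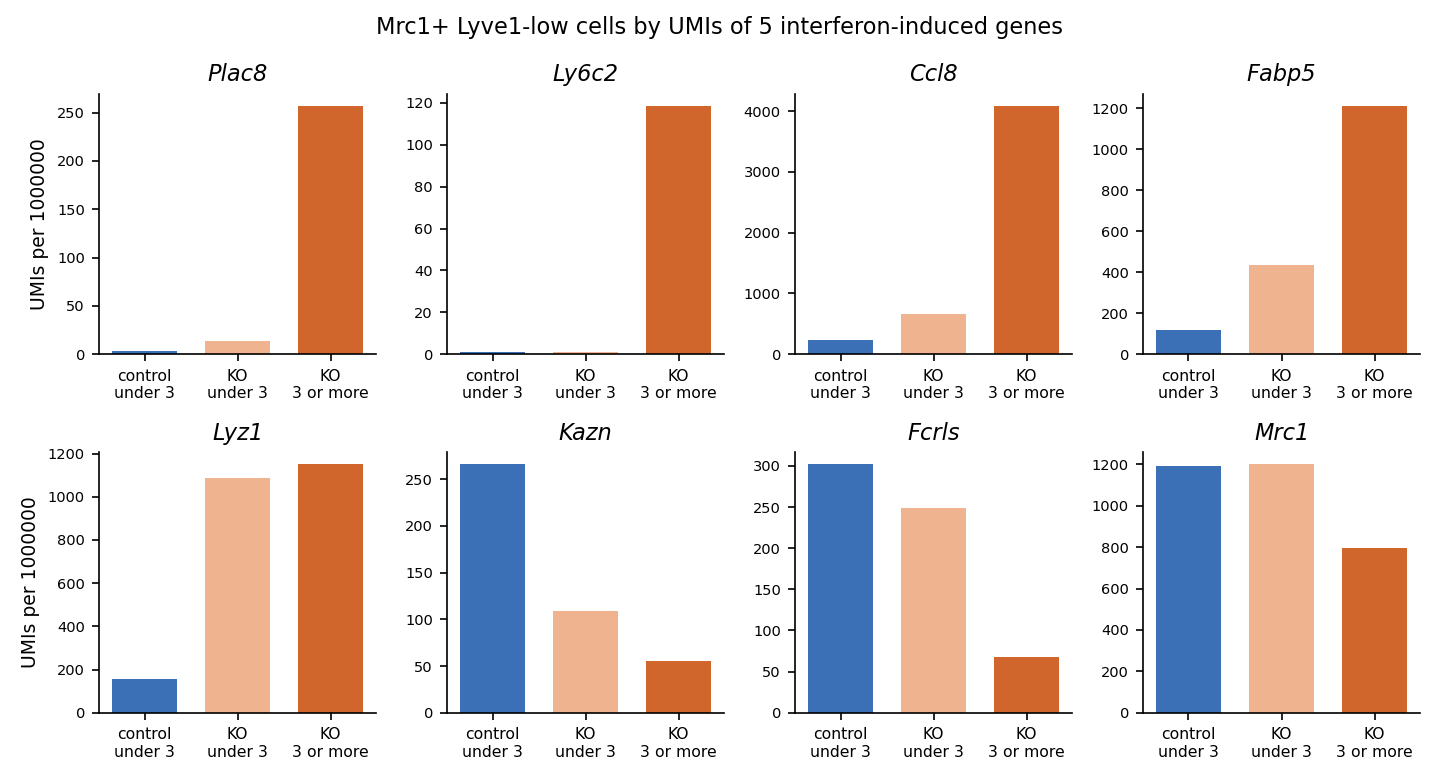
Levels of 8 genes (UMIs per 1000000, bars from 0) in Mrc1+ Lyve1-low cells with under 3 interferon-induced UMIs in the control pool, under 3 in the Tgfbr2-KO pool and at least 3 in the Tgfbr2-KO pool, with no replicate. Plac8 and Ly6c2 are near 0 in the first 2 bars, while Lyz1 and Kazn differ between the first 2 bars, at 156 against 1086 and 266 against 109.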

How the data were processed

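RNA of sorted lung cells was read in 1 droplet library (3′ chemistry) beside 1 library of antibody hashtags, 4887 cell barcodes of which were shared. The authors deposited raw UMI counts per gene and barcode, made with Cell Ranger 8.0 on GRCm38, per the submitters' processing notes, which also list Seurat 5.1.0. The matrix lists 22597 genes and 1172636 barcodes. Per the file headers, the deposited hashtag table gives each cell's assignment with its probability as a fraction, and hashtag UMIs as counts and on a log10 scale.

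Of 4887 called cells, 4671 were assigned to 1 hashtag, and 101 with under 1000 UMIs, under 500 genes or over 10% mitochondrial UMIs were removed. Hashtag multiplets were left out, and no doublet caller was run, so doublets within a pool remain. Total UMIs were 4602986 over control and 6267825 over Tgfbr2-KO member cells, so 3 UMIs, the limit that a count of 0 allows, equal 0.652 and 0.479 per 1000000. Levels are UMIs per 1000000 summed over cells. Levels have exact Poisson intervals, ratios exact conditional binomial ones and shares Clopper-Pearson ones (95%). UMIs correct for PCR copies of a molecule, and intervals cover counting error only. Genes counted had at least 100 UMIs and 100 UMIs per 1000000 on 1 side. The 12 rule genes and mitochondrial, ribosomal and sex-linked genes were left out of counts and ranks. Cells were grouped in order by C1q, Fn1, Retnla with Mgl2, Mrc1 and the Lyve1 program.

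Genes were named by rank: the 12 highest and 12 lowest ratios between the pools, the 12 highest and 8 lowest against other cells and 8 each against the 2 nearest groups, with the rule genes, 5 markers, the most abundant and extreme genes of 35 lists, and Lyz2, Lyz1 and Tgfbr2. Other genes named were chosen after their values were seen, and some that the rule names are not reported here. The members and lists were chosen with earlier results of these data known. Coordinates and promoters are RefSeq's for GRCm38.p6, matched by symbol for 190 of 190 genes under the rule. Settings varied were the limits of the rule, depth, cell filters, scaling, gene filters and free RNA. Computation used Python 3.11.15, numpy 2.4.6, scipy 1.17.1, pandas 2.3.3 and matplotlib 3.10.9, and the scripts were tested on simulated data.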

Additional observations from a re-analysis of the deposited data

Results flagged for a closer look

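Hspa1a, a heat shock gene that cell dissociation can induce, differed between the pools in opposite directions in 2 groups. Its log2 ratio of Tgfbr2-KO to control was 0.60 in Mrc1+ Lyve1-low cells and -0.93 in low Mrc1 cells. The difference was not tested, since each group had 1 pool for each genotype.

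Cells with no hashtag assignment also held cells that met the rule, a signal in data that the comparisons did not use. Of 65 kept Unassigned cells, 23 met it, or 35.4% (23.9 to 48.2), and of 44 kept Blank cells 10 did, or 22.7% (11.5 to 37.8). They belong to no genotype and entered no comparison. Of 95 kept hashtag multiplets, 29 met it, or 30.5%.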

How the results depend on the processing

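The share of Mrc1+ Lyve1-low cells was lower in the Tgfbr2-KO pool under each alternative run. A minimum of 3 Mrc1 UMIs gave 36.6% of control and 24.7% of Tgfbr2-KO cells, a difference of -11.9 percentage points, and a minimum of 6 gave 18.9% and 13.4%, or -5.46 points. A program limit of 5 UMIs gave 26.6% and 18.7%, and a limit of 12 gave 31.2% of control cells. Limits per 10000 UMIs gave 32.2% of control cells and a difference of -13.2 points, and thinning to 5000 UMIs gave 25.6% and 15.9%.

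Between the pools, a minimum level of 30 UPM gave 395 genes higher and 223 lower, with 4241 genes counted. Weighting cells equally gave 124 higher, 113 of them among the 164, and 64 lower, trimmed-mean scaling 128 higher and 136 lower, and leaving out cells with 3 or more interferon-induced UMIs 46 higher and 31 lower, with fewer cells. Against other kept cells the lower minimum level gave 8 higher and 35 lower, and limits per 10000 UMIs gave 13 higher. Against Lyve1 program cells that minimum gave 163 higher and 317 lower. Against low Mrc1 cells it gave 147 and 15, limits per 10000 UMIs 12 lower and a program limit of 5 UMIs 3 lower. The alternatives for these 2 nearest groups were chosen after seeing the data. Of 377 values of single genes under the alternatives, 310 moved by less than their counting interval, and 67 moved further. None of these that passed 1.5-fold over all Mrc1+ Lyve1-low cells changed sign. C3, which was not among them, did without interferon-positive cells (log2 1.34 to -0.15). Below that size, the log2 ratio of Mrc1 turned from -0.27 to 0.04 and that of Tgfbr2 from -0.10 to 0.01 with limits per 10000 UMIs, and that of Mrc1 to 0.01 without interferon-positive cells. No paired analysis was possible because each genotype had 1 pool.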
